A study of Sus scrofa with 6 samples.

Results

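The 9 genes described here carry out or control the synthesis and breakdown of glycogen in muscle: *GYS1*, *GYG1* and *GBE1* build the polymer, *PYGM*, *PHKA1* and *PHKG1* degrade it or control its degradation, and *PPP1R3A*, *PPP1R3C* and *PPP1R3D* bring protein phosphatase 1 to it. They were taken by their pig Ensembl symbol from a table of raw counts for 30476 genes. Each of the 9 had 1 identifier, and all 9 were among the 13402 genes that passed the filter on low counts. The table holds longissimus dorsi, a muscle of the back, from 3 adipocyte-specific UCP1 knock-in pigs (genotype UCP1-KI, written UCP1 KI) and 3 wild-type (WT) pigs, each 6 months old. The knock-in was made with CRISPR/Cas9 to place UCP1, the uncoupling protein of brown fat, in adipocytes, which are a minor part of a muscle sample. Muscle fibres were not a target of the knock-in. The sex of the pigs and whether they were littermates are not given in the sources used here. The p values set the difference between genotypes against the spread among these 6 animals. *UCP1* was found under no identifier of the gene name table and was not analysed here.

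Glycogen is the glucose store of muscle fibres, and fast fibres in particular draw on it during contraction. Glycogenin, the product of *GYG1*, attaches the first glucose residues to itself, glycogen synthase (*GYS1*) lengthens the chains from UDP-glucose, and the branching enzyme (*GBE1*) introduces branch points. Glycogen phosphorylase (*PYGM*) releases glucose 1-phosphate from the chains. Phosphorylase kinase switches phosphorylase on in response to calcium and adrenaline, while protein phosphatase 1, held on the glycogen particle by targeting subunits, switches glycogen synthase on and phosphorylase off.

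The counts on genes summed to between 30220951 and 35066624 per pig. Values are given as counts scaled to a total of 1000000 (CPM) after TMM normalization, with factors between 0.781 (WT replicate 2) and 1.18 (UCP1 KI replicate 2). The limit that a count of 0 allows, taken as 3 counts, was worth 0.0795 to 0.110 CPM by pig and reflects counting error alone. The 6 muscle fibre markers found under a symbol were abundant in every pig, with a summed level between 59659 and 107884 CPM, while the hepatocyte markers *ALB* and *TTR* had at most 0.469 CPM. The remaining hepatocyte marker, *APOA1*, lay between 7.74 and 26.9 CPM in UCP1 KI pigs and between 29.1 and 72.2 CPM in WT pigs, without overlap, and was called as lower (log2 fold change -1.49, adjusted p = 0.583 from edgeR). The 6 fibroblast markers summed to between 235 and 435 CPM in UCP1 KI pigs and between 742 and 1187 CPM in WT pigs, without overlap, and 4 of the 6 passed the limits given below as lower. The summed level of the 2 red blood cell markers did not overlap either (11.4 to 75.8 CPM against 104 to 179.5 CPM), although that of *ALAS2* alone did, and 0 of the 2 passed the limits. In bulk muscle, fewer cells of a type and less RNA per cell cannot be told apart.

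A gene was called when the unadjusted p of edgeR's quasi-likelihood test was under 0.05 and the absolute log2 fold change was above 0.5. Fold changes are UCP1 KI against WT. The study used the same limits with DESeq2, without saying whether p was adjusted, so its calls are not the same as those given here. Of the 9 glycogen genes, 2 were called: *GBE1* as higher and *PPP1R3D* as lower in UCP1 KI pigs. Of all genes tested, 8.19% were called in either direction, 3.84% as higher and 4.34% as lower. An unadjusted p under 0.05 in edgeR was reached by 1100 genes (8.21%), and 0 genes remained under 0.05 once p was adjusted by Benjamini-Hochberg for the 13402 tests. DESeq2 on the same genes left 127 under an adjusted p of 0.05, with none of the 9 members among them. The median log2 fold change of the 9 genes was -0.29, and that of all genes tested was -0.02. When libraries were scaled by their totals alone, these medians were -0.022 and 0.24. The median of the 9 genes turned to 0.28 when WT replicate 3 was left out and to 0.041 when UCP1 KI replicate 2 was. For *GBE1* and *PPP1R3D* the groups did not overlap, while they did for the other 7 genes. Among all genes tested, 15.3% had no overlap, 7.59% with the UCP1 KI pigs above and 7.69% with them below.

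**Figure D1:**
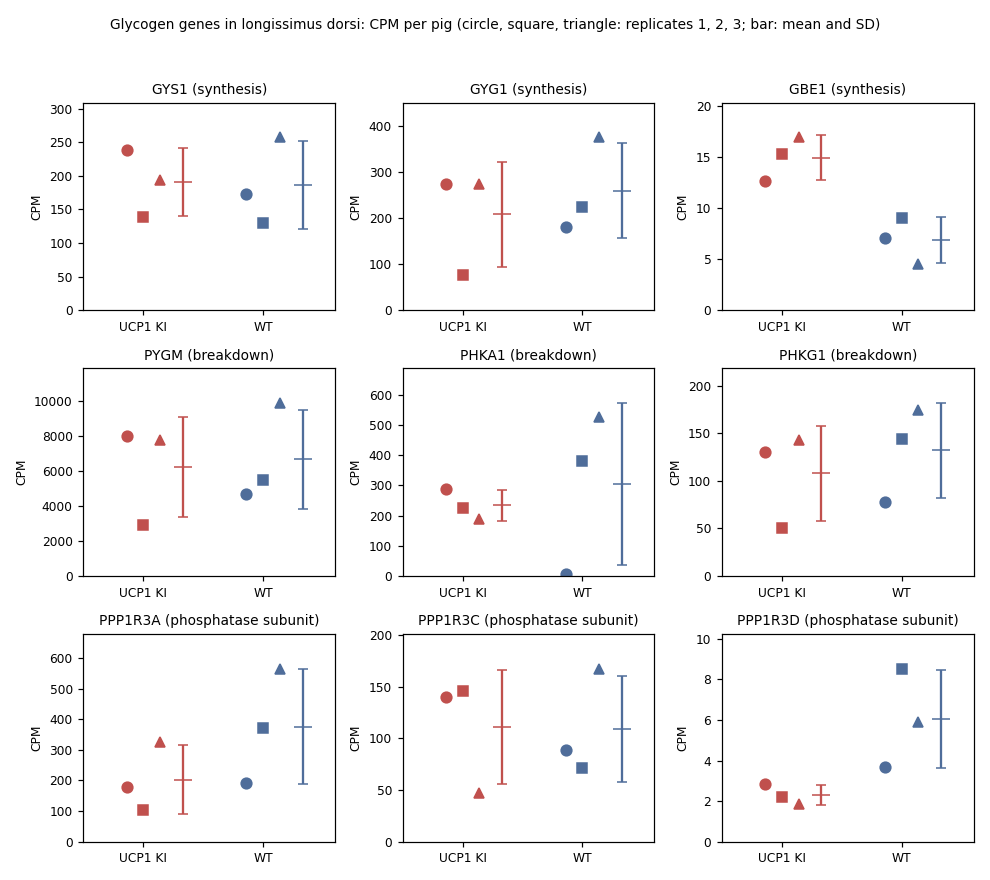
CPM of the 9 glycogen genes (vertical axes, each with its own range starting at 0) in 3 UCP1 KI pigs (red) and 3 WT pigs (blue). Circles, squares and triangles are replicates 1, 2 and 3, and the bars beside them are the mean and SD. The 3 UCP1 KI pigs lie above every WT pig for *GBE1* and below every WT pig for *PPP1R3D*, and *PHKA1* is near 0 in WT replicate 1 alone.

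Among the genes that build glycogen, *GBE1* (ENSSSCG00000012000, chromosome 13, 173634401 to 173909646, Sscrofa11.1) was measured at 12.6, 15.3 and 17.0 CPM in UCP1 KI replicates 1 to 3 and at 7.08, 9.02 and 4.50 CPM in WT replicates 1 to 3. Every UCP1 KI pig was thus above every WT pig, and the nearest of them were UCP1 KI replicate 1 and WT replicate 2. These levels were 15.0 ± 2.17 CPM (SD, n = 3) against 6.87 ± 2.27 CPM (SD, n = 3), a 2.18-fold higher mean in the fit. The log2 fold change was 1.12 (standard error 0.31, 95% interval 0.40 to 1.85), with an unadjusted p of 0.00758 from edgeR and an adjusted p of 0.583. A two-sided exact permutation test over the 6 pigs gave p = 0.1, below which groups of 3 pigs cannot go. Its counts, from 135 to 640 per pig, were well above the limit of the depth. A pseudogene of 31279 bases, which was not analysed here, lies within the gene in the RefSeq annotation. *GBE1* kept its call with each pig left out, where the log2 fold change lay between 0.90 and 1.37. The summed fibroblast and red blood cell markers and *APOA1* separated the same pigs in the other direction, and their part in the result was not tested.

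*GYS1* (ENSSSCG00000003154, chromosome 6, 54234600 to 54250211), glycogen synthase of muscle, was at 239, 139 and 194 CPM in UCP1 KI pigs and at 174, 129 and 258 CPM in WT pigs. The 2 groups covered nearly the same range. The means of 191 ± 50.1 CPM (SD, n = 3) and 187 ± 65.3 CPM (SD, n = 3) corresponded to a log2 fold change of 0.03 (standard error 0.34, 95% interval -0.75 to 0.82, adjusted p = 0.983 from edgeR). The interval thus leaves room for a change of the size seen for *UGP2* below in either direction. The sign of the *GYS1* value turned when UCP1 KI replicate 1 or either of WT replicates 1 and 2 was left out.

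*GYG1* (ENSSSCG00000011698, chromosome 13, 89221086 to 89259569), the glycogenin that primes each particle, was at 273, 77.0 and 274 CPM in UCP1 KI pigs and at 179.7, 223 and 375 CPM in WT pigs. UCP1 KI replicate 2 stood below all other pigs, 2.33-fold under the next one, and WT replicate 3 above them. A log2 fold change of -0.32 (standard error 0.51, 95% interval -1.51 to 0.87, adjusted p = 0.884 from edgeR) resulted, which turned to 0.07 without UCP1 KI replicate 2 and to 0.05 without WT replicate 3.

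Among the genes of breakdown, *PYGM* (ENSSSCG00000013022, chromosome 2, 7409330 to 7421256), the muscle phosphorylase, was at 7987, 2915 and 7743 CPM in UCP1 KI pigs and at 4662, 5456 and 9879 CPM in WT pigs. The lowest value was in UCP1 KI replicate 2 and the highest in WT replicate 3, so the range within each group was wider than the distance between the means, 6215 ± 2860 CPM (SD, n = 3) and 6666 ± 2811 CPM (SD, n = 3). Its log2 fold change of -0.10 (standard error 0.52, 95% interval -1.30 to 1.10, adjusted p = 0.968 from edgeR) was 0.13 with library totals alone, 0.24 when UCP1 KI replicate 2 was left out and 0.30 without WT replicate 3.

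*PHKG1* (ENSSSCG00000007744, chromosome 3, 16822042 to 16831054), the catalytic gamma subunit of phosphorylase kinase in muscle, was at 131, 50.5 and 142 CPM in UCP1 KI pigs and at 77.5, 144 and 175 CPM in WT pigs. As for *PYGM*, UCP1 KI replicate 2 was lowest, WT replicate 1 next and WT replicate 3 highest. The log2 fold change of -0.29 (standard error 0.45, 95% interval -1.35 to 0.76, adjusted p = 0.878 from edgeR) was 0.04 without UCP1 KI replicate 2. In the RefSeq annotation the gene lies within the span of *SUMF2*, which had between 7 and 23 counts per pig.

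*PHKA1* (ENSSSCG00000012411, chromosome X, 58456097 to 58583216), the regulatory alpha subunit of phosphorylase kinase in muscle, was the member that varied most. It had 8938, 8002 and 7129 counts in UCP1 KI replicates 1 to 3, but 181, 10445 and 15720 counts in WT replicates 1 to 3, or 289, 224 and 189 CPM against 4.99, 381 and 525 CPM. WT replicate 1 was 37.8-fold below the next lowest pig, while the other WT pigs were both above all UCP1 KI pigs. With all 6 pigs, the log2 fold change of -0.38 had a standard error of 1.13 and a 95% interval from -2.99 to 2.24 (adjusted p = 0.937 from edgeR). Without WT replicate 1 it was -0.95 and passed both limits (unadjusted p = 0.0204, adjusted p = 0.608 from edgeR), and without WT replicate 3 it was 0.28. A gap of at least 10-fold between the lowest pig and the next, with at least 100 counts in each other pig, was found in 43 of 8676 genes of that depth, and WT replicate 1 was the lowest pig in 9 of them. This count was made after the values of *PHKA1* were seen. A pseudogene of 1955 bases, not analysed here, lies within the span of *PHKA1* in the RefSeq annotation.

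The other isoform of this subunit, *PHKA2*, was at 4.52 CPM in WT replicate 1 and between 0.434 and 1.01 CPM in the other 5 pigs, so that the pig with the fewest *PHKA1* counts had the most *PHKA2* counts, 164 against 13 to 38. The log2 fold change of *PHKA2*, -1.07, did not pass the limits (adjusted p = 0.732 from edgeR). *PHKB*, the beta subunit, was at 81.4, 77.9 and 370.4 CPM in UCP1 KI pigs and at 111, 41.0 and 91.6 CPM in WT pigs, with UCP1 KI replicate 3 far above the others. Its log2 fold change of 1.12 (standard error 0.67, adjusted p = 0.682 from edgeR) did not pass either. *PHKG2*, the other gamma subunit, was lower in every UCP1 KI pig (6.99 to 8.15 CPM) than in every WT pig (8.41 to 10.9 CPM), at a log2 fold change of -0.37 with an adjusted p of 0.700 from edgeR. Of these 3 subunits, 0 were called.

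Among the subunits that target protein phosphatase 1 to glycogen, *PPP1R3D* (ENSSSCG00000007530, chromosome 17, 59963560 to 59967143), which encodes the subunit R6, had 88, 79 and 70 counts in UCP1 KI replicates 1 to 3, and 134, 233 and 176 counts in WT replicates 1 to 3. These were 2.85, 2.22 and 1.85 CPM against 3.69, 8.51 and 5.87 CPM. All UCP1 KI pigs were below all WT pigs, with WT replicate 1 the nearest to them. The means of 2.31 ± 0.502 CPM (SD, n = 3) and 6.03 ± 2.41 CPM (SD, n = 3) gave a log2 fold change of -1.38 (standard error 0.38, 95% interval -2.28 to -0.49), a fitted level 2.61-fold higher in WT pigs. The unadjusted p from edgeR was 0.00741, the adjusted p was 0.583, and the exact permutation test gave p = 0.1. The call held with each pig left out, between -1.65 and -1.05. *PPP1R3D* is a row label, read by eye, in the study's heatmap of altered insulin signalling genes, which were selected on the same pigs, so its direction is not independent evidence.

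In the RefSeq annotation, *PPP1R3D* shares 458 bases with *FAM217B*, with 40, 43 and 36 counts in UCP1 KI replicates 1 to 3, against 86, 54 and 98 counts in WT replicates 1 to 3. *FAM217B* was also called as lower, at a log2 fold change of -1.14 (unadjusted p = 0.0169, adjusted p = 0.583 from edgeR). Whether the counting used the strand of the reads is not given in the sources used here, so reads from the shared bases cannot be assigned to either gene with certainty. The summed fibroblast markers, of which 4 of 6 were called as lower, separated the same pigs in the same direction as *PPP1R3D*, as did *APOA1* and the summed red blood cell markers, and their part in the result was not tested.

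*PPP1R3A* (ENSSSCG00000016640, chromosome 18, 31997667 to 32039949), the targeting subunit of striated muscle, was at 179.6, 105 and 325 CPM in UCP1 KI pigs and at 191, 372 and 564 CPM in WT pigs. UCP1 KI replicate 3 lay within the WT range, so the groups overlapped. A log2 fold change of -0.89 (standard error 0.52, 95% interval -2.09 to 0.32, unadjusted p = 0.127, adjusted p = 0.677 from edgeR) did not pass the limits with all pigs. It did so when UCP1 KI replicate 3 was left out, at -1.39 (edgeR, unadjusted p = 0.0333, adjusted p = 0.565), and when WT replicate 1 was, at -1.21 (unadjusted p = 0.0474, adjusted p = 0.632). The value was negative in each of these fits and ranged up to -0.47 without WT replicate 3.

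*PPP1R3C* (ENSSSCG00000010464, chromosome 14, 103273401 to 103278757), which encodes the subunit PTG (protein targeting to glycogen), was at 140.0, 146 and 47.6 CPM in UCP1 KI pigs and at 88.5, 70.9 and 167 CPM in WT pigs. UCP1 KI replicate 3, which was high for *PPP1R3A*, was lowest here. A log2 fold change of 0.03 (standard error 0.49, 95% interval -1.11 to 1.17, adjusted p = 0.987 from edgeR) was negative in 4 of the 6 fits with a pig left out and reached 0.48 in the others.

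**Figure D2:**
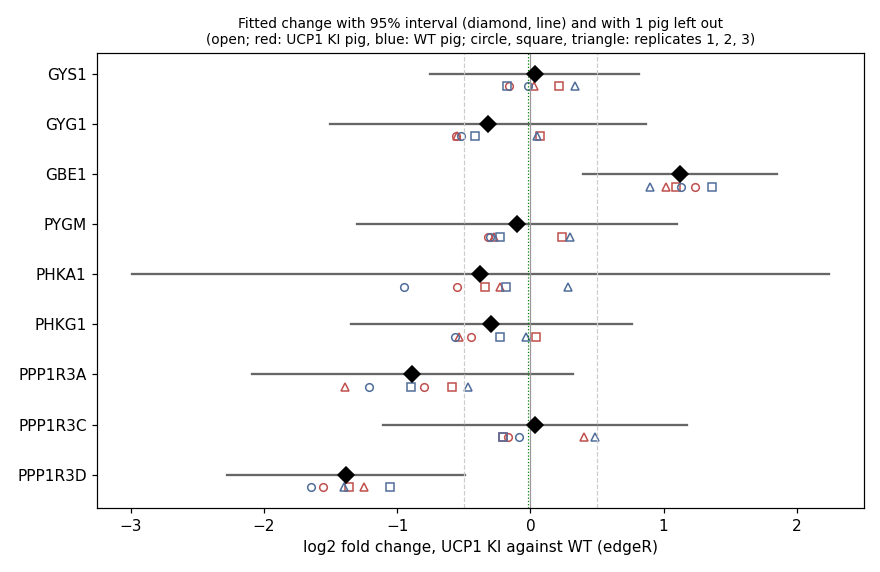
Fitted log2 fold change of each glycogen gene (horizontal axis, UCP1 KI against WT; black diamond) with its 95% interval (line), and the value with 1 pig left out (open symbols; red, a UCP1 KI pig; blue, a WT pig; circle, square and triangle, replicates 1, 2 and 3). Dashed lines mark the fold change limit and the dotted green line the median of all genes; the intervals of *GBE1* and *PPP1R3D* do not reach 0, and that of *PHKA1* runs from -2.99 to 2.24.

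Ratios of 2 members within a pig do not depend on how the libraries are scaled, and 6 such ratios were compared. The log2 ratio of *GYS1* to *PYGM* counts, which sets synthesis against breakdown, was -5.06, -4.39 and -5.32 in UCP1 KI replicates 1 to 3, against -4.75, -5.40 and -5.26 in WT replicates 1 to 3. The groups overlapped, and the difference of 0.21 was smaller than the spread within either group (SD 0.48 and 0.34, n = 3 each; two-sided exact permutation test, p = 0.6). It turned to -0.052 when UCP1 KI replicate 2 was left out and was 0.41 when either UCP1 KI replicate 3 or WT replicate 1 was. For *GBE1* to *GYS1* the log2 ratio was -4.24, -3.19 and -3.52 in UCP1 KI replicates 1 to 3, against -4.61, -3.84 and -5.84 in WT replicates 1 to 3. Its mean was 1.11 higher in UCP1 KI pigs, but WT replicate 2 was above UCP1 KI replicate 1 (exact permutation test, p = 0.2). Thus the groups were separate for *GBE1* in CPM, but not for *GBE1* relative to *GYS1*.

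The other ratios differed by -0.52 for *GYG1* to *GYS1* (exact permutation p = 0.4), 0.87 for *PPP1R3C* to *PPP1R3A* (p = 0.5), -0.42 for *PPP1R3D* to *PPP1R3A* (p = 0.6) and -1.56 for *PHKG1* to *PHKA1* (p = 0.7). In the last of these, WT replicate 1 stood apart at a log2 ratio of 3.96, where the other 5 pigs lay between -2.15 and -0.41, and without it the difference was 0.26. The 6 p values were all 0.7 after Benjamini-Hochberg adjustment. The ratio of the PTG subunit to the striated muscle subunit spread widest among UCP1 KI pigs, from -2.77 in replicate 3 to 0.48 in replicate 2.

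Several members were high or low in the same pigs, in both genotypes. WT replicate 3 had the highest level of 7 of the 9 genes, the exceptions being *GBE1*, which was lowest there, and *PPP1R3D*. UCP1 KI replicate 2 had the lowest level of 4 of them, *GYG1*, *PYGM*, *PHKG1* and *PPP1R3A*. The summed level of the 3 fast fibre markers found under a symbol (*TNNT3*, *TNNI2* and *ACTN3*) was 29990, 8113 and 29633 CPM in UCP1 KI pigs and 19069, 44542 and 47793 CPM in WT pigs. It was lowest in UCP1 KI replicate 2 and next lowest in WT replicate 1, which is also the order of the lowest pair of pigs for *GYG1*, *PYGM* and *PHKG1*, and highest in WT replicate 3. The 5 slow fibre markers summed to 12327, 10183 and 6936 CPM in UCP1 KI pigs and to 17176, 4170 and 5349 CPM in WT pigs. They were highest in WT replicate 1, and *GBE1* followed neither list. Of the 3 fast and 5 slow markers 0 passed the limits, and the part of fibre type in the levels of the glycogen genes was not tested.

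**Figure D3:**
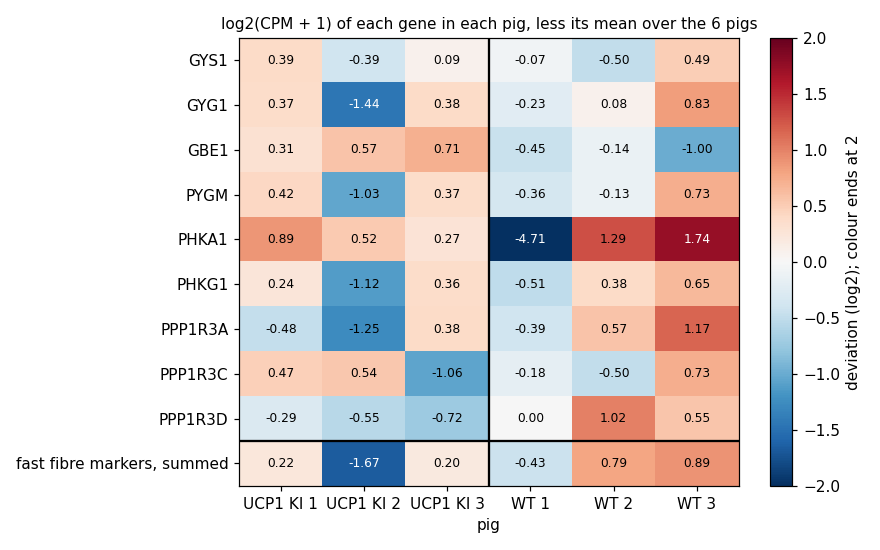
Deviation of each glycogen gene, and of the summed fast fibre markers, from its own mean over the 6 pigs, on the scale of log2(CPM + 1) (red, above; blue, below; the colour scale ends at 2 while the number in each cell does not). Columns are pigs and rows are genes; UCP1 KI replicate 2 is at -1.03 for *PYGM* and -1.67 for the fast fibre markers, and WT replicate 1 is at -4.71 for *PHKA1*.

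The genes whose level over the 6 pigs was most like that of *PYGM* were *SH3BGR*, *MYOZ3* and *ASB10*, with a root mean square difference of 0.11, 0.13 and 0.14 on the scale of log2(CPM + 1) after centring, against a spread of 0.59 of *PYGM* itself. The nearest to *GYS1* were *MRPL58*, *PAK1* and *COQ9*, at 0.09, 0.10 and 0.11 against a spread of 0.37. For *PPP1R3C* the nearest were *ABRA*, *NCAPG* and *LMNB2*, at 0.21, 0.21 and 0.22 against 0.64. The search covered those of the 13402 genes tested that had a symbol. With 6 pigs and so many genes, such closeness is a description of these animals.

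The isoforms that belong to other tissues were measured beside the muscle forms. *GYS2*, glycogen synthase of liver, had 0 counts in all 6 pigs, which allows a level of up to 0.110 CPM in the pig with the highest limit. The other glycogenin, *GYG2*, was between 1.15 and 3.47 CPM. *PYGL* and *PYGB*, the liver and brain phosphorylases, were between 12.4 and 21.6 CPM and between 0.365 and 1.65 CPM, and neither passed the limits (log2 fold change -0.13 and 0.83, adjusted p = 0.915 and 0.701 from edgeR). *PPP1R3B*, a targeting subunit known best from liver, was at 41.1, 7.24 and 38.9 CPM in UCP1 KI pigs and at 9.79, 40.4 and 51.2 CPM in WT pigs. UCP1 KI replicate 2 and WT replicate 1 were again the lowest pair, and its log2 fold change was -0.22 (adjusted p = 0.944 from edgeR). *PPP1R3F* did not pass at 0.63 (adjusted p = 0.718), and *PPP1R3G*, with 0 to 20 counts, was left out by the filter.

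A wider list of 49 further genes of glycogen metabolism, grouped by step, was read from the same fit. Of these, 39 had an identifier and 37 were tested, and 4 were called as higher and 1 as lower in UCP1 KI pigs, where 3.84% and 4.34% of all genes were. The smallest adjusted p among the 37 was 0.583 from edgeR. By step, 2 of 6 genes of glucose entry and glucose 1-phosphate were called as higher, 1 of 12 kinase and hormone signal genes as higher and 1 as lower, and 1 of the 3 tested genes of lysosomal glycogen breakdown and autophagy (*GAA*, *GABARAPL1* and *LAMP2*) as higher. The genes of laforin and malin, *EPM2A* and *NHLRC1*, were on that list but had no identifier in the name table and were not analysed here. Among 1 gene of synthesis, 9 of breakdown and 6 of protein phosphatase 1 and its subunits, 0 were called. The median log2 fold change of the 37 genes was 0.17.

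*UGP2*, which makes the UDP-glucose that glycogen synthase uses, was at 159, 186 and 152 CPM in UCP1 KI pigs and at 105, 122 and 102 CPM in WT pigs. The groups did not overlap. The means of 166 ± 17.7 CPM (SD, n = 3) and 109.8 ± 10.9 CPM (SD, n = 3) gave a log2 fold change of 0.59 (standard error 0.22, 95% interval 0.07 to 1.11, unadjusted p = 0.0302, adjusted p = 0.583 from edgeR). This call was lost without UCP1 KI replicate 1 or 2 or WT replicate 1 or 3, at values between 0.49 and 0.62.

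*HK2*, the hexokinase that phosphorylates glucose on its entry into the fibre, was at 55.9, 59.9 and 12.3 CPM in UCP1 KI pigs and at 15.9, 6.50 and 13.2 CPM in WT pigs. UCP1 KI replicates 1 and 2 were far above the WT pigs, while UCP1 KI replicate 3 lay within their range. Its log2 fold change of 1.85 (standard error 0.60, edgeR unadjusted p = 0.0162, adjusted p = 0.583) passed the limits, but not without UCP1 KI replicate 2 (1.53) or WT replicate 2 (1.55). *SLC2A4*, the insulin-responsive glucose transporter, had a log2 fold change of 0.12 (adjusted p = 0.929 from edgeR).

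*GSK3B*, a kinase that inhibits glycogen synthase, was at 27.0, 54.2 and 32.8 CPM in UCP1 KI pigs and at 28.4, 15.0 and 15.8 CPM in WT pigs. UCP1 KI replicate 1 was below WT replicate 1, so the groups overlapped. The fitted log2 fold change of 0.94 (standard error 0.37, edgeR unadjusted p = 0.0353, adjusted p = 0.595) no longer passed when UCP1 KI replicate 2 (0.58) or either of WT replicates 2 (0.78) and 3 (0.81) was left out. Nor did *GSK3B* pass with the replicate number as a block (edgeR, unadjusted p = 0.0610).

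*PRKACB*, a catalytic subunit of the cyclic AMP-dependent kinase that acts upstream of phosphorylase kinase, had 17, 33 and 16 counts in UCP1 KI replicates 1 to 3, and 1144, 13 and 633 counts in WT replicates 1 to 3. WT replicate 2 was thus at the level of the UCP1 KI pigs, and the call rests on the other WT pigs. The fitted log2 fold change was -4.80 (standard error 1.24, edgeR unadjusted p = 0.00513, adjusted p = 0.583). DESeq2 on the same genes gave an adjusted p of 0.00032, and on all genes with any count 0.0368. With the replicate number as a block in edgeR, *PRKACB* was at -4.07 and was not called (unadjusted p = 0.0539). *PRKACA*, which encodes the other main catalytic subunit, was between 80.0 and 94.2 CPM in UCP1 KI pigs and between 56.3 and 102 CPM in WT pigs, at a log2 fold change of 0.11.

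*GABARAPL1*, a protein of the ATG8 family that helps to deliver cargo to autophagosomes, was at 66.0, 98.7 and 106 CPM in UCP1 KI pigs and at 49.9, 50.1 and 48.7 CPM in WT pigs. The WT pigs were close together and all UCP1 KI pigs lay above them. A log2 fold change of 0.86 (standard error 0.25, edgeR unadjusted p = 0.00910, adjusted p = 0.583) kept its call with each pig left out, between 0.73 and 1.05. *GAA*, the lysosomal enzyme that degrades glycogen, had 0.37 (adjusted p = 0.769), and did not pass.

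**Figure D4:**
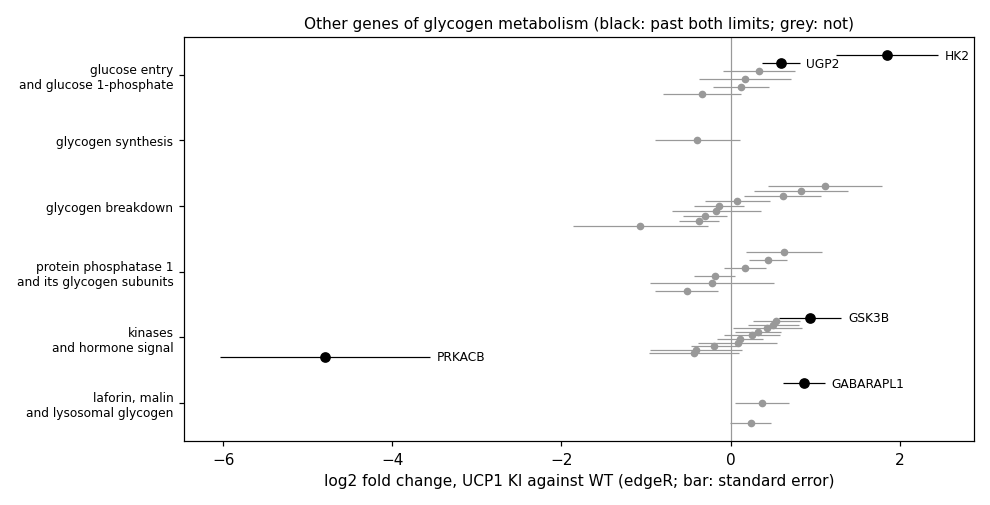
Log2 fold change (horizontal axis, UCP1 KI against WT; bars, standard error) of the 37 further genes of glycogen metabolism that were tested, by step (vertical axis). Black points passed both limits and are named, grey points did not; *HK2*, *UGP2*, *GSK3B* and *GABARAPL1* lie to the right of 0 and *PRKACB*, at -4.80, to the left.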

How the data were processed

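RNA-seq of longissimus dorsi from 3 UCP1 KI and 3 WT pigs was analysed. The authors checked reads with FastQC 0.11.2, filtered them with Trimmomatic 0.36, mapped them with HISAT2 2.0 and computed expression with StringTie 1.3.3b. The build Sscrofa11.1 is named in the submitters' processing notes. The authors deposited raw counts per Ensembl pig gene, without normalization. The counting program, its use of strand and the annotation release are not given in the sources used here.

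Differences were tested with edgeR 4.0.16 under R 4.3.3 (filterByExpr, TMM factors, genotype as the only term, quasi-likelihood F test, two-sided). The standard error is the log2 fold change divided by the square root of F. Symbols came from an Ensembl name table, and positions are RefSeq gene spans of the same build, 1-based. Transcript lengths were not used, so levels of different genes were not compared, and a ratio of 2 genes was compared between pigs only. Exact permutation tests on log2 ratios enumerated all 20 assignments, and those on expression used log2(CPM + 1). Named genes were the 9 members, their isoforms, called genes of the step lists and the 3 nearest genes by pattern. *GAA*, *PRKACA*, *SLC2A4* and the overlapping genes were named after their values were seen. The members and all lists were chosen with earlier results of these data known. Adipocyte, endothelial, leukocyte, nerve, glial and heart markers had 0 called genes but for *CD3E*, and the hepatocyte list had *APOA1* called as lower. The 4 adipocyte markers tested were all lower in UCP1 KI pigs, at a median log2 fold change of -1.18. The summed level of the adipocyte list overlapped between the groups and was highest in WT replicate 2 (282 CPM). Alternatives were DESeq2 1.42.0, other scalings and filters, the replicate number as a block, no fold change limit and each pig left out. The procedure was also run on counts simulated from the means and dispersions of these data. That run does not test the calls of single genes made here, and its outcome is not reported.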

Additional observations from a re-analysis of the deposited data

How the results depend on the processing

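The calls of *GBE1* and *PPP1R3D* were the same in all 13 other fits, with log2 fold changes between 0.90 and 1.41 and between -1.65 and -1.05. *GYG1*, *GYS1*, *PYGM*, *PHKG1* and *PPP1R3C* passed the limits in 0 of them. The number of called glycogen genes was 2 in every fit except where UCP1 KI replicate 3 (3, with *PPP1R3A* at -1.39) or WT replicate 1 was left out (4, with *PPP1R3A* at -1.21 and *PHKA1* at -0.95). With each pig left out, this number lay between 2 and 4, that of all genes between 678 (UCP1 KI replicate 2 left out) and 1541 (without WT replicate 3), with 718 without WT replicate 2, and that of further glycogen genes between 2 (without UCP1 KI replicate 2) and 5, with 3 without WT replicate 2, against 1097 and 5 with all pigs. The cause was not tested.

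With a pig left out, the log2 fold change lay between -0.18 and 0.34 for *GYS1* and between -0.56 and 0.073 for *GYG1*. It lay between -0.32 and 0.30 for *PYGM*, -0.95 and 0.28 for *PHKA1*, and -0.57 and 0.041 for *PHKG1*. The range was -1.39 to -0.47 for *PPP1R3A* and -0.20 to 0.48 for *PPP1R3C*. The median of all 9 glycogen genes, *GBE1* and *PPP1R3D* included, lay between -0.52 and 0.28. *PYGM* also changed sign with library totals alone (0.13). The log2 ratios lay between -0.052 and 0.41 for *GYS1* to *PYGM*, -2.51 and 0.26 for *PHKG1* to *PHKA1* and -0.81 and 0.14 for *PPP1R3D* to *PPP1R3A*, and, without a change of sign, between 0.58 (without WT replicate 3) and 1.58 for *GBE1* to *GYS1*, -0.79 and -0.12 (UCP1 KI replicate 2 left out) for *GYG1* to *GYS1* and 0.19 (UCP1 KI replicate 2 left out) and 1.81 (UCP1 KI replicate 3 left out) for *PPP1R3C* to *PPP1R3A*. Library totals alone gave 929 higher and 195 lower genes in place of 515 and 582.

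Pigs of the same number, 1 to 3, had correlations of 0.0038, 0.094 and 0.283 between their deviations from the group means. The last was the highest of all pairs, while UCP1 KI replicate 1 correlated best with WT replicate 2 (0.129). Whether pigs of the same number share more than a number cannot be told from these values. With the replicate number as a block, 1114 genes and 2 glycogen genes were called, *PHKA1* was at 0.40, and of the further genes *GSK3B* (0.94) and *PRKACB* (-4.07) were no longer called. Where a printed interval includes 0, a difference of a size within it could not be told from none with 3 pigs in each group.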
